A study of Mus musculus with 8 samples.

Results

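Expression of 9 genes of lipid-sensing transcription and lipid export was measured in Tregs obtained from WT and Alox15-/- mice. They are the receptors Ppara, Ppard and Pparg, the receptors Nr1h2 and Nr1h3, the coregulators Ncor1 and Ppargc1b, and the lipid exporters Abca1 and Abcg1. The genes were chosen by symbol, and each had 1 row among the 28239 gene symbols of the count table. Naïve splenic CD4+ T cells were taken by magnetic negative selection from 4 wild type and 4 Alox15-/- mice, both on the C57BL/6 background. All cells were cultured for 2 days with IL-2, TGF-β and beads carrying antibodies to CD3 and CD28, so each group shared the same cytokines. Mice were female and male, aged 10 to 12 weeks, and each genotype came from its own supplier. Neither littermate controls nor the part of Alox15 removed by the allele are given in the sources used here, nor is it said whether sexes were balanced. RNA was profiled by MACE-seq, which reads transcripts near their 3′ ends, although the labels name a small RNA kit of the same company.

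PPARs and LXRs are nuclear receptors that bind fatty acid derivatives and oxidised sterols, and both pair with RXR on DNA. Oxidised fatty acids of the kind made by lipoxygenases are among the known PPAR ligands. Without a ligand the receptors recruit corepressors such as NCoR1, and with one they exchange these for coactivators. LXRs then induce Abca1 and Abcg1, which export cholesterol, and in T cells this axis is known for limiting sterol supply during proliferation. PPARγ is known for its part in Tregs of adipose tissue.

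The total count per library lay between 3723151 and 9538962, and was at most 6952596 in the libraries labelled Alox15-/-. Values are given as CPM, the reads of a gene relative to all reads of its library, after scaling of the library sizes by the TMM method. Alox15 itself was at 63.7 to 70.5 CPM in the libraries labelled Alox15-/- and at 1.88 to 9.02 CPM in those labelled WT. By edgeR its log2 fold change was 3.65 (adjusted p = 1.08e-05, SE 0.299), the opposite of what the labels name. Directions below compare the libraries by label, Alox15-/- over WT, and would turn if the labels of the groups were exchanged. Neither such an exchange nor the position of the reads relative to the deletion was tested. The 6 T cell markers and the 5 Treg markers listed were present in every library. Their sums were 1867 to 2112 and 1664 to 1820 CPM in the libraries labelled Alox15-/- and 2054 to 2127 and 1754 to 1951 CPM in WT. Among the T cell markers, Cd4 was lower in the libraries labelled Alox15-/- (210 to 297 against 328 to 352 CPM). Cd3g was higher there (152 to 170 against 111 to 140 CPM). The groups did not overlap for either gene, as for 5.25% of all genes tested, and neither passed (edgeR adjusted p = 0.357 and 0.296). Foxp3, which defines Tregs, was at 71.7 to 114 CPM against 93.4 to 195 CPM, with all 4 libraries labelled Alox15-/- below the WT mean, and did not pass the test (log2 fold change -0.42, edgeR adjusted p = 0.655). Markers of other cells differed between the groups. A marker was tested if it reached 2 CPM in 4 or more libraries, which the 4 libraries labelled Alox15-/- can meet alone. Tyrobp, Alas2 and Ms4a2 met it through that group (0.908 to 2.10, 0 to 1.11 and 0.314 to 1.26 CPM in WT). The counts of tested markers found higher therefore rest in part on the filter. The 10 markers of monocytes and macrophages found in the table summed to 30.6 to 98.8 CPM in the libraries labelled Alox15-/- and 5.35 to 11.96 CPM in WT, with 2 of the 3 tested higher by the edgeR test and 4 of the 10 under 1 CPM throughout, and the 6 erythroid markers summed to 907 to 3486 CPM against 32.9 to 122 CPM, with all 5 tested higher. The sums of eosinophil markers (20.1 to 70.3 against 1.25 to 10.3 CPM), of mast cell and basophil markers (125 to 300.2 against 56.6 to 79.5 CPM) and of NK and γδ T cell markers (79.99 to 147 against 43.1 to 55.7 CPM) were also higher in each library labelled Alox15-/-. Single markers did not all follow these sums. In the last list, Trdc and Tcrg-C4 had means of 65.6 and 24.4 CPM against 18.4 and 6.301 CPM in WT. Ncr1 had means of 0.343 against 0.416 CPM, and the groups overlapped for Nkg7 and Klrb1c. Kit, of the mast cell list, had means of 30.9 against 31.7 CPM. Ccr3, of the eosinophil list, was lower (means 0.108 against 1.64 CPM), with 39 of its 42 WT reads in a single library. The B cell marker sum was 5.31 to 7.33 against 7.68 to 18.1 CPM, and the dendritic cell sum 3.31 to 6.79 against 2.93 to 4.48 CPM. In such bulk RNA, fewer cells of a type and less RNA per cell cannot be told apart.

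To ask whether this receptor axis differed between the genotypes, the groups were compared over genes that reached 2 CPM in 4 or more libraries. This filter kept 12700 genes and 5 of the 9 members, namely Ppard, Nr1h2, Ncor1, Ppargc1b and Abcg1. None of these 5 passed an adjusted p of 0.05 in edgeR's quasi-likelihood test, against 1.24% of all genes tested. At an unadjusted p under 0.05 the count was also 0, against 7.84% of all genes tested, and DESeq2 and limma-voom called 0 of the 5 as well. The groups overlapped for each of the 5, whereas they did not overlap for 5.25% of all genes tested. The log2 fold changes lay between -0.15 and 0.20, with 2 above and 3 below zero, and their median of -0.038 stood beside a median of -0.0075 over all genes tested. The p-values measure the spread between these 8 libraries, which the series describes as coming from 4 mice per genotype.

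**Figure D1:**
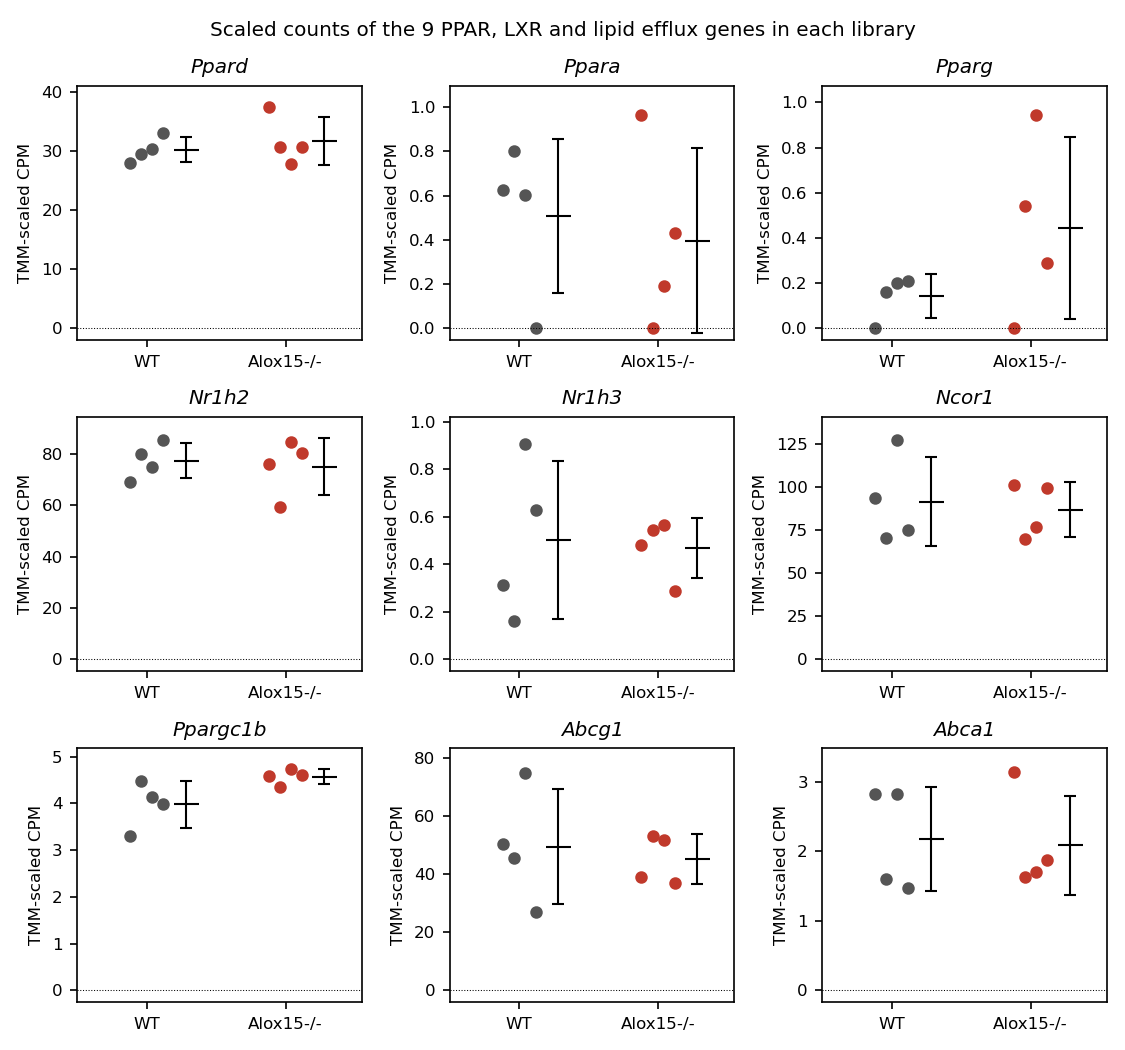
TMM-scaled CPM (vertical axes, dotted line at 0) of the 9 genes in the 4 WT (grey) and the 4 Alox15-/- (red) libraries; each point is 1 library and the black bar gives the mean with its SD. The groups overlap in all 9 panels, Ppard stays between 27.8 and 37.4 CPM, and Abcg1 spreads from 26.9 to 74.8 CPM within WT.

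Among the PPARs, Ppard (GRCm38, chromosome 17, 28232700 to 28301474, plus strand) was well covered, with 113 to 301 reads per library. PPARδ is expressed in most tissues and drives genes of fatty acid oxidation. Ppard was at 27.9, 29.5, 30.4 and 32.9 CPM in WT replicates 1 to 4. In Alox15-/- replicates 1 to 4 it was at 37.4, 30.7, 27.8 and 30.6 CPM. Both the highest and the lowest library were labelled Alox15-/-, and all WT libraries lay between them. The difference on the log2 scale was 0.066 (SE 0.128, edgeR adjusted p = 0.939). Its 95% interval ran from -0.21 to 0.34, or from 0.867-fold to 1.26-fold, and without Alox15-/- replicate 1 the value was -0.019.

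Ppara and Pparg were near the limit of detection. PPARα is best known for fatty acid oxidation in liver, and PPARγ for fat storage and for macrophages and adipose Tregs. Pparg (chromosome 6, 115360951 to 115490399, plus strand) had 0, 1, 2 and 1 reads in WT replicates 1 to 4 and 0, 2, 5 and 2 reads in Alox15-/- replicates 1 to 4. The 9 reads of the libraries labelled Alox15-/- against the 4 reads of WT gave a ratio of 3.06 after scaling, with a 95% exact counting interval from 0.854 to 13.6. A count of 0 in WT replicate 1 allows up to 0.4704 CPM, and one in Alox15-/- replicate 1 up to 0.724 CPM. Without the filter, the fitted log2 fold change of Pparg was 1.48 (95% interval -0.45 to 3.40, edgeR adjusted p = 0.768), and without Alox15-/- replicate 3, which held 5 of the 9 reads, it was 0.79. Ppara (chromosome 15, 85734983 to 85802819, plus strand) had 4, 5, 6 and 0 reads in WT and 4, 0, 1 and 3 reads in Alox15-/- replicates 1 to 4, for a ratio of 0.726 (exact counting interval 0.266 to 1.82). Its fitted log2 fold change without the filter was -0.43 (95% interval -1.93 to 1.07, edgeR adjusted p = 0.878), and without Alox15-/- replicate 1 it was -1.09. The intervals of the ratios and the limits at a count of 0 cover counting error only, while those of the fit include a spread shared among genes, and a difference in either gene was not detectable at this depth. The monocyte and macrophage marker sum, given above, was highest in Alox15-/- replicate 2. This was the shallowest library, and its 2 Pparg reads stood for 0.543 CPM. The 5 Pparg reads of Alox15-/- replicate 3 stood for 0.946 CPM. The part of other cells in these reads was not tested.

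Of the LXRs, Nr1h2 held nearly all reads. It codes for LXRβ, the widely expressed form, whereas Nr1h3 codes for LXRα, which is typical of liver and macrophages. Nr1h2 (chromosome 7, 44549616 to 44553951, minus strand) was at 69.1, 80.2, 75.1 and 85.4 CPM in WT replicates 1 to 4. In Alox15-/- replicates 1 to 4 it was at 76.0, 59.4, 84.7 and 80.3 CPM. The lowest library was Alox15-/- replicate 2, and the other 7 lay between 69.1 and 85.4 CPM. On the log2 scale the groups differed by -0.038 (SE 0.121, edgeR adjusted p = 0.967), with a 95% interval from -0.30 to 0.22, or 0.815-fold to 1.16-fold. Without Alox15-/- replicate 2 the value for Nr1h2 was 0.057, and without WT replicate 4 it was 0.014. Nr1h3 (chromosome 2, 91184061 to 91202834, minus strand) had 2, 1, 9 and 3 reads in WT and 2, 2, 3 and 2 reads in Alox15-/- replicates 1 to 4. Its ratio after scaling was 0.816 (exact counting interval 0.315 to 1.99), and its fitted log2 fold change without the filter was -0.23 (95% interval -1.69 to 1.23, edgeR adjusted p = 0.963). Without WT replicate 3, which held 9 of the 15 WT reads, the value for Nr1h3 was 0.34, and by limma-voom it was 0.023, so its sign was not stable. The non-coding gene Gm13783 overlaps Nr1h3 on the same strand and had 1 to 5 reads per library, so the reads of the 2 may not be separable.

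Ncor1 and Ppargc1b stand for the opposite sides of receptor output, NCoR1 as the scaffold that brings histone deacetylase 3 to silent receptors and PGC-1β as a coactivator of mitochondrial and lipid genes. Ncor1 was at 93.8, 70.2, 127 and 75.1 CPM in WT replicates 1 to 4 and at 101, 70.02, 76.97 and 99.4 CPM in Alox15-/- replicates 1 to 4. WT replicate 3 was the highest, and the groups overlapped. The fitted difference was -0.078 on the log2 scale (SE 0.175, edgeR adjusted p = 0.948), with a 95% interval from -0.45 to 0.29. Without WT replicate 3 it was 0.13 and without Alox15-/- replicate 2 it was 0.011, so its sign rested on single libraries. Ncor1 (GRCm38, chromosome 11, 62316426 to 62458541, minus strand) is the member on the chromosome of the targeted gene, 7.89 Mb from Alox15. Its 3′ end meets that of Ttc19 on the opposite strand, with 12026 bases of overlap between the annotated genes. Ttc19 had 74 to 254 reads per library (log2 fold change -0.16, edgeR adjusted p = 0.837). Without a stated strand setting, reads at the shared end cannot be assigned with certainty.

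Ppargc1b (chromosome 18, 61298136 to 61400431, minus strand) varied little among the libraries labelled Alox15-/-. It was at 4.59, 4.34, 4.73 and 4.60 CPM there and at 3.29, 4.48, 4.14 and 3.99 CPM in WT replicates 1 to 4. All 4 libraries labelled Alox15-/- lay above the WT mean of 3.98 CPM, but WT replicate 2 lay above the lowest of them. Its log2 fold change, 0.20 (SE 0.231, edgeR adjusted p = 0.884), had no call, with a 95% interval from -0.29 to 0.69. A two-sided exact permutation test of the 4 against 4 scaled values gave p = 0.0571, where 0.0286 is the smallest p that this design can give. The gene had 16 to 41 reads per library, so that counting error alone was sizeable.

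The exporters are the classical readout of LXR activity, Abca1 loading cholesterol onto apolipoprotein A-I and Abcg1 onto HDL particles. Abcg1 (chromosome 17, 31057675 to 31117988, plus strand) was at 50.5, 45.6, 74.8 and 26.9 CPM in WT replicates 1 to 4. In Alox15-/- replicates 1 to 4 it was at 38.9, 53.2, 51.8 and 36.97 CPM. The lowest and the highest library were both WT, 2.79-fold apart, and all 4 libraries labelled Alox15-/- lay between them. The fitted log2 difference was -0.15 (SE 0.228, edgeR adjusted p = 0.914), with a 95% interval from -0.64 to 0.33, or 0.642-fold to 1.26-fold. Leaving out WT replicate 3 turned it to 0.13 and leaving out WT replicate 4 moved it to -0.35 (edgeR adjusted p = 0.633). The coefficient of variation of Abcg1 was 39.9% in WT and 18.7% in the libraries labelled Alox15-/-.

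Abca1 (chromosome 4, 53030787 to 53159895, minus strand) missed the filter, since only 3 libraries reached 2 CPM. It had 18, 10, 28 and 7 reads in WT replicates 1 to 4, or 2.82, 1.602, 2.82 and 1.47 CPM. In Alox15-/- replicates 1 to 4 it had 13, 6, 9 and 13 reads, or 3.14, 1.63, 1.70 and 1.87 CPM. The highest library was Alox15-/- replicate 1, and the groups overlapped throughout. The 41 against 63 summed reads gave a ratio of 0.885 (exact counting interval 0.583 to 1.33). The fitted log2 fold change without the filter was -0.14 (95% interval -0.93 to 0.64, edgeR adjusted p = 0.956), and it was 0.036 without WT replicate 3. Alox15-/- replicate 2, with the highest sum of monocyte and macrophage markers, had 6 Abca1 reads and the lowest level of its group, at 1.63 CPM, close to the 1.70 and 1.87 CPM of replicates 3 and 4. The part of such cells in the Abca1 reads was not tested.

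**Figure D2:**
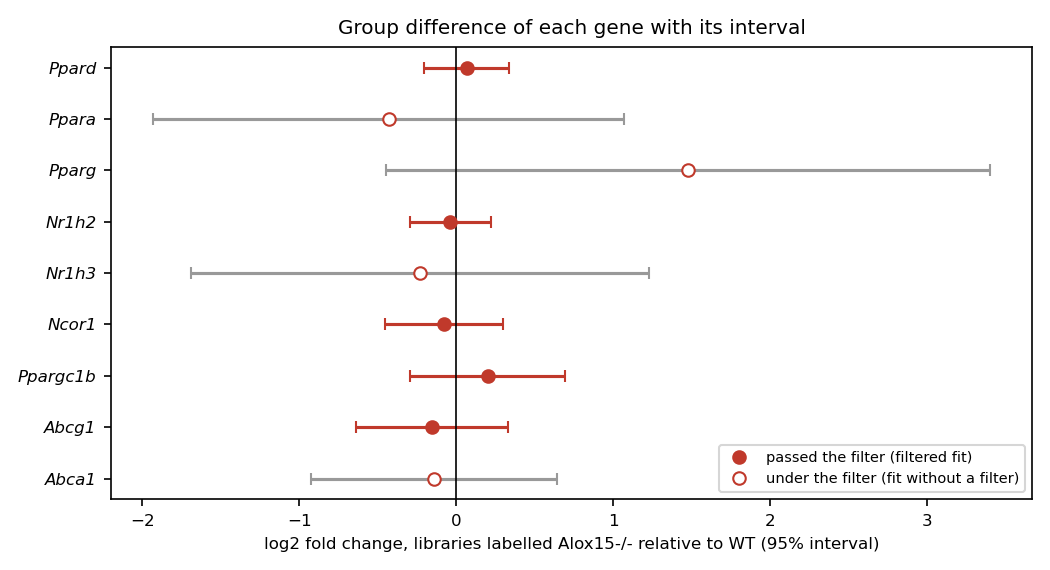
Log2 fold change (horizontal axis) of the 9 genes with 95% intervals; filled points are the 5 genes of the filtered edgeR fit and open points the 4 genes under the filter, from the fit without one. All 9 intervals include 0, and that of Pparg, with 13 reads in all, is the widest at -0.45 to 3.40.

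Between genes, levels were set per kb of the longest annotated transcript and over all 8 libraries. Nr1h2 was the highest at 38.2 ± 4.32 CPM per kb (SD, n = 8). Ncor1 (9.88 ± 2.21 CPM per kb), Ppard (8.29 ± 0.835 CPM per kb) and Abcg1 (8.12 ± 2.44 CPM per kb) followed, and these neighbours did not differ beyond their spread. Ppargc1b was at 1.17 ± 0.128 CPM per kb. Nr1h3 (0.245 ± 0.118 CPM per kb), Abca1 (0.208 ± 0.0658 CPM per kb), Pparg (0.138 ± 0.148 CPM per kb) and Ppara (0.133 ± 0.106 CPM per kb) came last, again with overlapping ranges. Reads of a 3′ assay need not grow with transcript length, and the order in CPM alone was different. Ncor1, at 89.3 ± 19.98 CPM, then stood above Nr1h2, at 76.3 ± 8.64 CPM, and Abcg1, at 47.3 ± 14.3 CPM, above Ppard, at 30.9 ± 3.11 CPM. Likewise Abca1, at 2.13 ± 0.676 CPM, stood above Nr1h3, at 0.486 ± 0.234 CPM, and Ppara, at 0.452 ± 0.362 CPM, above Pparg, at 0.293 ± 0.315 CPM.

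The partners, coregulators, targets and transport genes around the 9 members were taken as 6 lists of 74 genes, of which 70 had a row in the table and 55 were tested. Of these 55, 0 passed the adjusted threshold in edgeR's quasi-likelihood test, and DESeq2 and limma-voom also called 0. At an unadjusted p under 0.05 there were 7, or 12.7%, against 7.84% of all genes tested. The groups did not overlap for 5 of the 55 (9.09%), against 5.25% of all genes tested. In all, 26 fitted values were above and 29 below zero, with a median log2 fold change of -0.013.

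**Figure D3:**
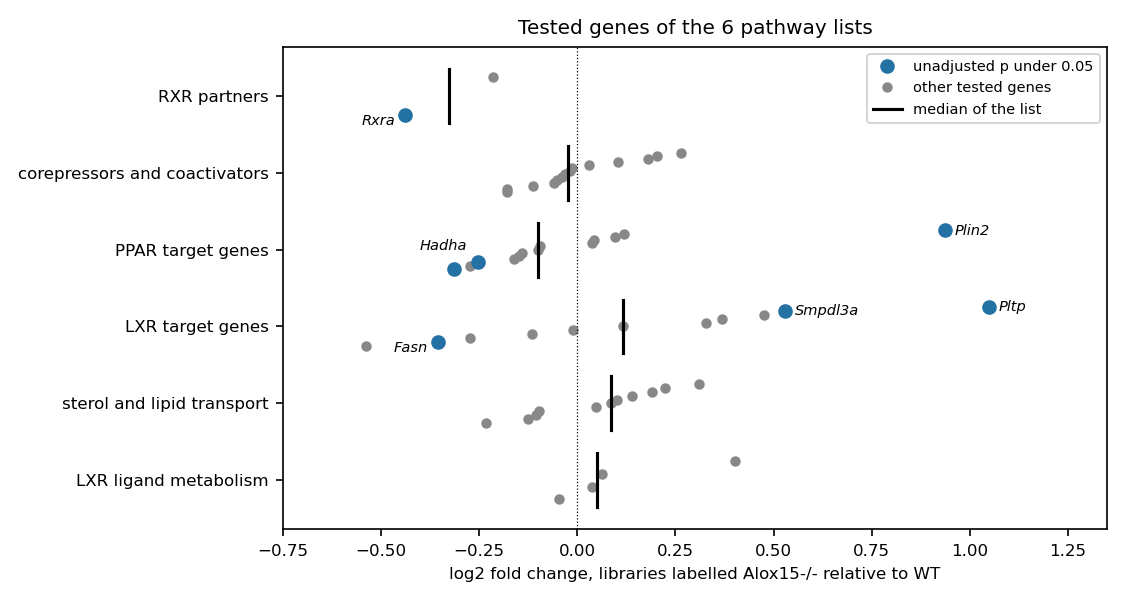
Log2 fold change (horizontal axis) of the 55 tested pathway genes, 1 point per gene, in 6 lists; blue points have an unadjusted p under 0.05, with a name where the text describes the gene, and the black bar is the list's median. The medians lie between -0.33 and 0.12, and Pltp (1.05) and Plin2 (0.94) stand farthest from 0. Both had few reads, 8 to 22 per library for Pltp and 10 to 35 for Plin2.

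Of the 3 RXR genes, whose products are the obligate partners of PPARs and LXRs, Rxra and Rxrb were tested. Rxra was at 68.5 to 101 CPM in WT and at 59.6, 46.1, 65.1 and 62.9 CPM in Alox15-/- replicates 1 to 4. All 4 libraries labelled Alox15-/- lay below every WT library. For Rxra the log2 fold change was -0.44 (SE 0.141, edgeR adjusted p = 0.294) and so did not pass the threshold. The fit without a filter, which shares 1 estimate of the spread among genes, gave an edgeR adjusted p of 0.0267 for Rxra. Rxrb had a log2 fold change of -0.22 (edgeR adjusted p = 0.738), and Rxrg had at most 2 reads in a library.

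Of 15 corepressor and coactivator genes, 14 were tested and 0 passed in either direction, with a median log2 fold change of -0.025. The smallest p belonged to Tbl1x, a subunit of the NCoR complex, at 66.6 to 74.4 CPM in the libraries labelled Alox15-/- and 76.8 to 81.8 CPM in WT. Its groups did not overlap, with a log2 fold change of -0.18 (95% interval -0.38 to 0.024, edgeR adjusted p = 0.702). Ncoa1 and Nrip1, a coactivator and a corepressor, had log2 fold changes of 0.18 and 0.26 (edgeR adjusted p = 0.715 and 0.763).

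Of 17 PPAR target genes, 15 had a row and 13 were tested, with 0 past the threshold and a median log2 fold change of -0.10. Plin2, which coats lipid droplets, was at 2.20, 2.08, 3.03 and 2.10 CPM in WT replicates 1 to 4 and at 4.35, 4.89, 4.16 and 5.04 CPM in Alox15-/- replicates 1 to 4. Every library labelled Alox15-/- lay above every WT library. The log2 fold change of Plin2 was 0.94 (95% interval 0.38 to 1.49, edgeR adjusted p = 0.147), and over the 19 alternatives its adjusted p lay between 0.0567 and 0.397. Hadha, an enzyme of mitochondrial fatty acid oxidation, had a log2 fold change of -0.25 (edgeR adjusted p = 0.459). Plin2 is also high in macrophages, whose marker sum differed between the groups as given above, and the part of such cells was not tested.

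PPAR with RXR binds a direct repeat of the half-site AGGTCA with 1 base between the copies (DR1), and LXR with RXR the same repeat with 4 bases between (DR4). The repeats were looked for on both strands, with at most 2 mismatches over the 2 half-sites, in RefSeq promoter windows of 300 bases (GRCm38.p6). Of all 32851 windows, 3.86% held a DR1 and 3.02% a DR4 by this rule. Of the 9 members, 7 matched a window, and 0 of their 11 windows held either repeat. Of the 14 pathway genes named by rule, 13 matched, with 17 windows, of which 2 held a DR1 and 0 a DR4. These 2 belong to Plin2 and Rxra, and are printed to show the letters matched, with the repeat in capitals on the strand of the gene. The Plin2 stretch lies at chr4:86670247-86670309 on the minus strand, with the repeat on the other strand from base -225 to -213 before the annotated start. The Rxra stretch lies at chr2:27709192-27709254 on the plus strand, with the repeat from base -75 to -63. A match describes letters in these windows and is not evidence of binding. The lack of a match does not show that a gene has no such element, since only 300 bases were searched by 1 rule.
Plin2: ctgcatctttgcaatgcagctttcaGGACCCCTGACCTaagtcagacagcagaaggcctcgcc
Rxra: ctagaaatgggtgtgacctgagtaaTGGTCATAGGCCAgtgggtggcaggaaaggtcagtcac

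Of 17 LXR target genes other than Abca1 and Abcg1, 15 had a row and 11 were tested, with 0 past the threshold and a median log2 fold change of 0.12. Fasn, the fatty acid synthase, was at 169 to 226 CPM in the libraries labelled Alox15-/- and 214 to 274 CPM in WT (log2 fold change -0.35, edgeR adjusted p = 0.288). Pltp, a phospholipid transfer protein, was at 2.88 to 4.61 CPM against 1.11 to 2.88 CPM (log2 fold change 1.05, edgeR adjusted p = 0.317). Pltp had only 8 to 22 reads per library. Within WT only replicate 2 reached 2 CPM, so the gene passed the filter through the libraries labelled Alox15-/-. Smpdl3a, a phosphodiesterase induced by LXR in macrophages, was at 10.97 to 15.5 CPM against 8.18 to 10.8 CPM (log2 fold change 0.53, edgeR adjusted p = 0.324). Thus the 3 genes with the smallest p of this list did not share a direction. Arl4c, an LXR-induced small GTPase, had a log2 fold change of 0.33 (edgeR adjusted p = 0.686), and without WT replicate 3 it was 0.57 and passed (edgeR adjusted p = 0.0384). Arl4c was named after its values had been seen.

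Of the 11 tested LXR targets, 3, namely Srebf1, Scd1 and Scd2, had both extremes in the same libraries as Abcg1. Fasn shared only the highest library, Smpdl3a and Arl4c only the lowest, and 5 shared neither, among them Pltp, which was lowest, at 1.11 CPM, where Abcg1 was highest. Scd1, the stearoyl-CoA desaturase, was at 99.2, 127, 184 and 24.8 CPM in WT replicates 1 to 4 and at 36.9, 154, 73.2 and 41.4 CPM in Alox15-/- replicates 1 to 4. Scd2, its paralog, ranged from 276 to 847 CPM and Srebf1, the regulator of lipogenesis, from 32.5 to 71.1 CPM. For Abcg1, Srebf1, Scd1 and Scd2 alike, WT replicate 3 was the highest and WT replicate 4 the lowest of the 8 libraries. The ratio of these 2 libraries was 2.79 for Abcg1, 2.19 for Srebf1, 7.41 for Scd1 and 3.07 for Scd2. Fasn was at 274 CPM in WT replicate 3 but at 243 CPM in WT replicate 4, and its lowest library was Alox15-/- replicate 1, at 169 CPM. Ncor1 and Foxp3 were likewise highest in WT replicate 3, at 127 and 195 CPM, with their lowest values of 70.02 and 71.7 CPM in Alox15-/- replicates 2 and 1. The part of Treg content or depth in these levels was not tested. WT replicate 3 was also the deepest library, and these 2 libraries lay at opposite ends of the second principal component, which held 19.7% of the variance. The genes of this comparison other than Abcg1 were chosen after their values had been seen. Between the groups Scd1, at a log2 fold change of -0.54 (95% interval -1.53 to 0.46, edgeR adjusted p = 0.842), did not pass. In the fit without a filter its edgeR adjusted p was 5.47e-04, but that fit shares 1 estimate of the spread among genes. The coefficient of variation of Scd1 was 71.1% in the libraries labelled Alox15-/- and 60.8% in WT. Its groups overlapped, and the exact permutation test gave p = 0.486.

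**Figure D4:**
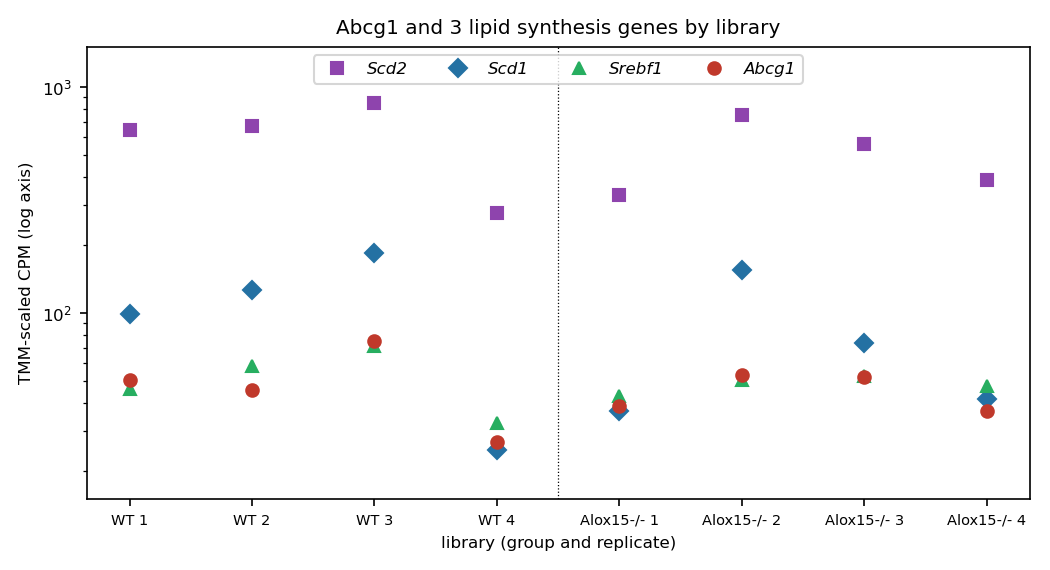
TMM-scaled CPM (vertical log axis) of Abcg1, Srebf1, Scd1 and Scd2 in each of the 8 libraries (horizontal axis, WT left and Alox15-/- right of the dotted line). All 4 genes are highest in WT replicate 3 and lowest in WT replicate 4, and Scd1 spans 24.8 to 184 CPM.

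Of 13 genes of sterol and lipid transport, 11 were tested and 0 passed, with a median log2 fold change of 0.085. Npc2, which moves cholesterol out of lysosomes, and Nceh1, a cholesteryl ester hydrolase, had log2 fold changes of 0.19 and 0.22 (edgeR adjusted p = 0.723 and 0.782). Of 9 genes that make or remove LXR ligands, 4 were tested and 0 passed, with a median of 0.050. Cyp11a1, which opens the side chain of cholesterol, was between 37.5 and 82.0 CPM in the libraries labelled Alox15-/- and between 23.5 and 57.7 CPM in WT (log2 fold change 0.40, edgeR adjusted p = 0.773). Without Alox15-/- replicate 2 the value for Cyp11a1 was 0.092, and without WT replicate 3 it was 0.70 (edgeR adjusted p = 0.957 and 0.330). Ebp, an enzyme of late cholesterol synthesis, had a log2 fold change of 0.062 (edgeR adjusted p = 0.940). Ch25h and Cyp7b1 had at most 3 and 5 reads in a library.

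Over the 8 libraries, the tested genes whose log2 CPM followed Abcg1 most closely were Gpr83, a receptor known from Tregs, Zcchc3 and Tnfaip8l1, with Pearson's r of 0.970, 0.963 and 0.960 and Spearman's rho of 0.976, 0.976 and 0.905. Without the 2 libraries farthest from the median of Abcg1, r was 0.833, 0.978 and 0.797. For Abca1 they were Rab5b, Gm26683 and Gapvd1, with r of 0.949, 0.944 and 0.936 and rho of 0.690, 0.833 and 0.81. These genes are the top of about 12700 compared over 8 libraries that share depth and scaling, so no p is given, and with 6 to 28 reads of Abca1 per library its list is a description only.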

How the data were processed

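For 8 MACE-seq libraries the deposited table holds raw read counts by gene symbol, from cleaned and trimmed reads. The submitters' processing notes name Bowtie, edgeR and GRCm38, while the counting tool, the strand setting and the treatment of duplicate reads are not given in the sources used here. Columns were matched to libraries by name, and 0 columns were left unassigned.

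Genes reaching 2 CPM in 4 or more libraries (12700, or 45.0%) were tested with edgeR 4.0.16 in R 4.3.3 (TMM scaling, quasi-likelihood test, group as the only term, Benjamini–Hochberg adjustment over all genes tested, threshold 0.05), following the filter and adjustment of the study. The 4 members under the filter were taken from the same fit without a filter, over 28239 genes, in which gene-specific spread was not estimated. Standard errors are the log2 fold change divided by the square root of F, with 95% intervals. Ratios of summed reads have exact binomial intervals. Positions and transcript lengths came from GENCODE for GRCm38. The last 500 bases of each member's longest transcript matched 0 other genes with blastn 2.17.0 (at least 90% identity over 200 bases).

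The 9 members and the lists were chosen with earlier results of these data known. The text names all members, Alox15, for each pathway list the genes past the threshold or else the 3 with the smallest p (some of these are counted but not reported here), and the 3 genes most like Abca1 and Abcg1 (log2 of CPM plus 1). The fit was checked on simulated counts. Alternatives were other scalings, filters, DESeq2 1.42.0, limma-voom (limma 3.58.1), likelihood-ratio and robust tests, the replicate number as a block and each library left out. Replicate pairs of a group differed by more than counting error (chi-square per degree of freedom 4.60 to 17.4). Permutation tests used scipy 1.17.1.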

Additional observations from a re-analysis of the deposited data

Results flagged for a closer look

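Of the 48 groups of 4 libraries examined (24 genes, Dixon's test), 3 held 1 library far from the other 3, and chance gives about 1 in 20, or 2.4. Abca1 was at 3.14 CPM in Alox15-/- replicate 1, whereas the other libraries of that group lay between 1.63 and 1.87 CPM. Plin2 was at 3.03 CPM in WT replicate 3, with the other WT libraries between 2.08 and 2.20 CPM. Cyp11a1 was at 82.0 CPM in Alox15-/- replicate 2, with the others between 37.5 and 43.1 CPM.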

How the results depend on the processing

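The count of members past the threshold was 0 under all 19 alternatives, and 0 of 160 refitted member values passed. Of these, 151 kept their direction and 9 changed sign. By limma-voom Nr1h3 was at 0.023. With each library left out in turn the log2 fold changes ranged from -0.019 to 0.13 for Ppard, -0.095 to 0.057 for Nr1h2, -0.51 to 0.34 for Nr1h3, -0.37 to 0.036 for Abca1, -0.35 to 0.13 for Abcg1, -0.19 to 0.13 for Ncor1, -0.019 to 0.14 for Ebp, and from 0.092 to 0.70 for Cyp11a1, whose sign held. Pparg (0.79 to 1.83), Ppara (-1.09 to -0.13) and Ppargc1b (0.12 to 0.26) kept their sign under all alternatives. Pathway genes past the threshold numbered 2 without the filter (Scd1 and Rxra), where genes share 1 spread, and 0 to 1 with a library left out, the 1 being Arl4c without WT replicate 3. Over all genes the count of 158 became 388 without the filter, 100 with at least 10 counts in every library, and 86 to 172 with a library left out, being 95, 86 and 93 without Alox15-/- replicate 1, 2 and 3 and 105 without WT replicate 2. With the replicate number as a block it was 146 (replicate block), with no call of a member or pathway gene changed. Same-numbered libraries did not deviate together (correlations -0.18 to 0.17), so the numbers were not taken as pairs. Under other scalings the median log2 fold change of all genes was between -0.020 and 0.021. Pparg, Ppara, Nr1h3 and Abca1 had 13, 23, 24 and 104 reads in all, and their intervals were wider than those of the other members.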
